A study of Mus musculus with 12 samples.

Results

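The Cd4 and Lag3 neighbourhood of the mouse genome was examined for the histone mark H3K9/14ac, acetylation of lysines 9 and 14 of histone H3, in cultured T helper 17 (Th17) cells with and without Slc2a3, which encodes the glucose transporter GLUT3. It was taken as the 250 kb of chromosome 6 between 124.75 and 125.0 Mb (GRCm38), and 6 genes in it are described in full: Cd4, Lag3, Ptms, Gpr162, Usp5 and Mlf2. They are 6 of 21900 protein-coding genes in the annotation, and the interval holds 9 other protein-coding genes and 1 region that is not reported here. The neighbourhood accounts for 19 of the 40909 regions in the authors' deposited table and for 18 to 25 peaks per library. It was chosen by its KO against WT fold changes and peak lengths, which are large at Cd4, so all KO against WT values below describe a selected place and carry no test of their own. The FDRs quoted are those of the authors.

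Wild type (WT) Th17 cells of C57BL/6 mice were compared with Slc2a3 fl/fl Cd4-cre cells (KO), in which the recombinase removes the floxed Slc2a3. Each genotype has 3 ChIP libraries. Both groups were polarised in culture to day 3 and then restimulated for 3 h with PMA and ionomycin together with the transport blockers brefeldin A and monensin. Chromatin of the 6 ChIP samples was barcoded inside the nuclei, pooled and precipitated together with 5 µg of antibody, a procedure called RELACS. Cd4-cre is a transgene in which regulatory sequence of Cd4 itself drives the recombinase in T cells, and the labels of the WT cells name no transgene. Loss of Slc2a3 and presence of Cd4-cre therefore cannot be told apart in any value below, nor can reads from Cd4 sequence in a transgene and reads from the endogenous gene. Separate mice for the libraries of a genotype are not stated in the labels, so their spread may be technical.

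CD4 is the coreceptor that binds MHC class II and brings the kinase Lck to the T cell receptor. LAG-3, encoded by the neighbouring gene, is an inhibitory receptor of activated T cells that also binds MHC class II. Acetylated H3 lysines 9 and 14 mark active promoters and enhancers, and Cd4 is controlled by an enhancer upstream, a promoter and a silencer inside its first intron.

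The mean coverage by fragments, solved from the peak lists, ran from 2.97 to 3.99 in WT and from 1.85 to 2.29 in KO, so the KO libraries were the shallower ones, at 0.58 of WT. Heights below are therefore given as multiples of each library's mean coverage at the peak summit, which is a level per base and can be compared between genes. KO replicate 3 had 11 peaks on chromosome Y against 1 or 2 in each of the other libraries, and leaving it out turned no height comparison at the regions of the 6 genes from overlapping to separate or back. Of 10 Th17 markers 8 or 9 had a peak in each library, and Il22 had none. The authors' deposited table calls 7 of the 8 tested Th17 markers lower in KO, Il17a, Il17f and Il23r among them, and 0 higher, where 64.3% of all 11626 tested genes were lower and 6.40% higher. The summed height of the Th17 markers was 621.0 to 642.1 in WT and 611.9 to 637.6 in KO, and the ranges overlap. Cd8a, Ms4a1, Cd79b, Pax5, Ncr1, Klrb1c, Klra8, Lyz2, Siglech and Gata1, which are among the markers of other blood cells, had no peak in any library. Other markers of those cells did have peaks. The summed height of the B cell markers Cd79a and Ebf1 was 171.7 to 200.4 in WT and 141.1 to 159.8 in KO. For 5 of 6 myeloid markers, with a peak in every library, it was 214.1 to 257.0 in WT and 165.9 to 204.7 in KO, and for 2 of 3 plasmacytoid dendritic cell markers 75.0 to 96.2 and 81.3 to 82.1. For the NK cell marker Klrk1, 1 of 4, the height was 37.0 to 42.1 in WT and 21.4 to 30.7 in KO. Of 4 CD8 T cell markers 2 or 3 had a peak (54.2 to 70.2 in WT, 36.2 to 37.5 in KO), and of 3 erythroid markers 2 did in each WT library and 0 to 2 in KO (36.4 to 48.8 in WT, 0.0 to 27.5 in KO). The part of such cells in the results was not tested. The targeted gene Slc2a3 lies 2.06 Mb from Cd4. Its highest peak stood at 83.7, 86.4 and 93.3 times mean coverage in the WT libraries and at 44.3, 42.8 and 46.9 in the KO libraries, and the authors' deposited table calls 8 of its 9 regions lower in KO and 0 higher, where 46.3% of all regions were lower and 12.7% higher.

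Across the neighbourhood the acetylation changed in both directions within short distances. Of the 19 regions in the authors' deposited table, 8 (42.1%) were lower in KO at an FDR under 0.05, where 46.3% of all regions were, and 5 (26.3%) were higher, where 12.7% of all regions were. Calls in either direction cover 68.4% of the 19 regions and 59.0% of all. The median best-window log2 fold change was -0.58 in the neighbourhood and -0.62 over all regions of the authors' deposited table. The higher regions lie at Cd4, between Cd4 and Lag3, at the shared end of Usp5 and Cdca3, at Spsb2 and between genes. The nearest regions beyond the interval had log2 fold changes of -0.65 on the low side and -1.57 on the high side in the authors' deposited table, both called lower.

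**Figure D1:**
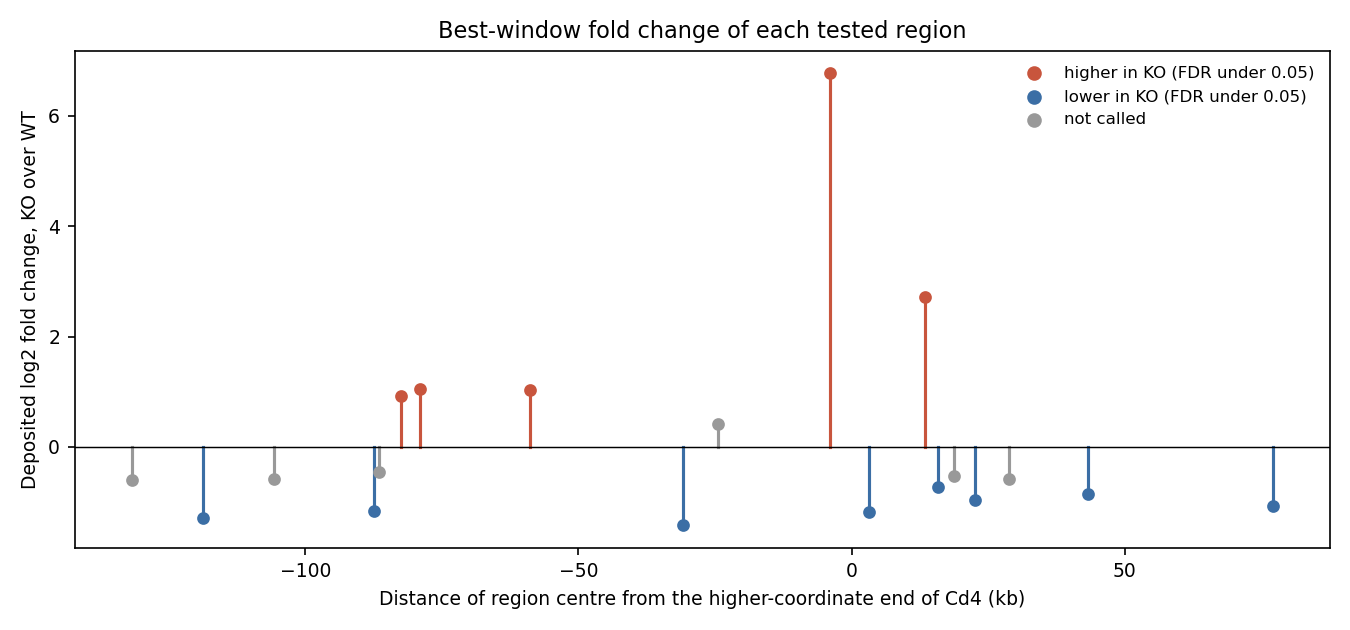
Log2 fold change of the best window of each of the 19 regions from the authors' deposited table (y axis, KO over WT) against the distance of the region's centre from the higher-coordinate end of Cd4 in kb (x axis). The Cd4 block at 6.77 and the region near Lag3 at 2.71 stand far above the other 17, which lie between -1.42 and 1.05.

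Summed peak length was lower in the KO libraries, as it was over the genome. Peaks covered 39099, 36906 and 38218 bp in WT libraries 1 to 3 and 31156, 33109 and 29652 bp in KO libraries 1 to 3, a KO to WT ratio of 0.822, where the same ratio over the whole genome was 0.827. Outside the 2 gained regions next to Cd4 and Lag3 the lengths were 30083, 28050 and 29928 bp in WT and 21588, 22835 and 19989 bp in KO, a ratio of 0.731. All 3 KO libraries lie below all 3 WT libraries in both measures. The difference outside the 2 gained regions, -7883 bp, was -7142 bp without KO replicate 3 and -2651 bp with peaks called on single reads instead of paired fragments.

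Cd4 (chromosome 6, 124864693 to 124888247) held the strongest change. A region of 9300 bp at 124879651 to 124888950, over the higher-coordinate end of the gene where its transcription starts, had a log2 fold change of 6.77 and an FDR of 3.44e-168 in the authors' deposited table. That FDR is rank 1 of all 40909 regions of the authors' deposited table, and the log2 fold change is rank 5, or rank 1 when chromosome Y is left out. Of the 62 windows of 150 bp in it, 60 went up and 2 went down in the authors' deposited table. The best window, at 124879951 to 124880100, lies inside the gene, 8296 bp from its higher-coordinate end. The 6.77 belongs to that window, which lies in a stretch without a peak in any WT library. At the peak summits the log2 ratio of mean heights was 2.52.

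The peak over this block was wider in KO. It spanned 124883254 to 124889109 in WT replicate 1, 124883254 to 124889106 in WT replicate 2 and 124882362 to 124889116 in WT replicate 3, widths of 5856, 5853 and 6755 bp. In KO it ran from 124879671 to 124888616 in replicate 1 and from 124879670 to 124888616 in replicates 2 and 3, widths of 8946, 8947 and 8947 bp. Both edges were thus shared within 1 bp by the 3 KO libraries, whereas the WT starts were up to 892 bp apart. Over the genome both edges were shared to within 1 bp by all 3 KO libraries for 2.0% of the peaks of KO replicate 1, and for 24 of its 1241 peaks of at least 5 kb (1.93%). In WT the share was 2.4% of the peaks of replicate 1. The Cd4 peak was not alone in this within the interval. The KO peaks at 124829224 to 124830950 (124830949 in replicate 2) and at 124903842 to 124904251 also shared both edges within 1 bp.

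Base by base, the extension lies on the gene-body side only. A stretch of 2691 bp at 124879671 to 124882361, from 8576 to 5886 bp inside the higher-coordinate end of Cd4, was under a peak in 3 of 3 KO libraries and 0 of 3 WT libraries. The next bases, up to 124883253, were under a peak in all 3 KO libraries and in 1 to 3 WT libraries. The 5363 bp from 124883254 to 124888616, which hold the end of the gene, were under a peak in all 6 libraries. On the far side the order turned round: the 490 bp at 124888617 to 124889106, lying 370 to 859 bp beyond the gene, were under a peak in all 3 WT libraries and in 0 KO libraries.

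That gene-body stretch makes up 91.7% of everything found in KO libraries alone. The interval holds 2936 bp under a peak in 3 KO and 0 WT libraries, in 3 segments, the others being 188 bp between genes at 124805171 and 57 bp at 124830893 in Cdca3. The opposite class, 3 WT and 0 KO libraries, holds 3746 bp in 10 segments, the longest of which is 1405 bp at 124901997 to 124903401, between Cd4 and Lag3. The KO-only length was 3223 bp and the WT-only length 4738 bp without KO replicate 3. Which class is the longer depends on the peak list: with single-read peaks the KO-only length was 4511 bp and the WT-only length 3050 bp, and with a -log10 q of at least 10 they were 3259 and 2568 bp.

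**Figure D2:**
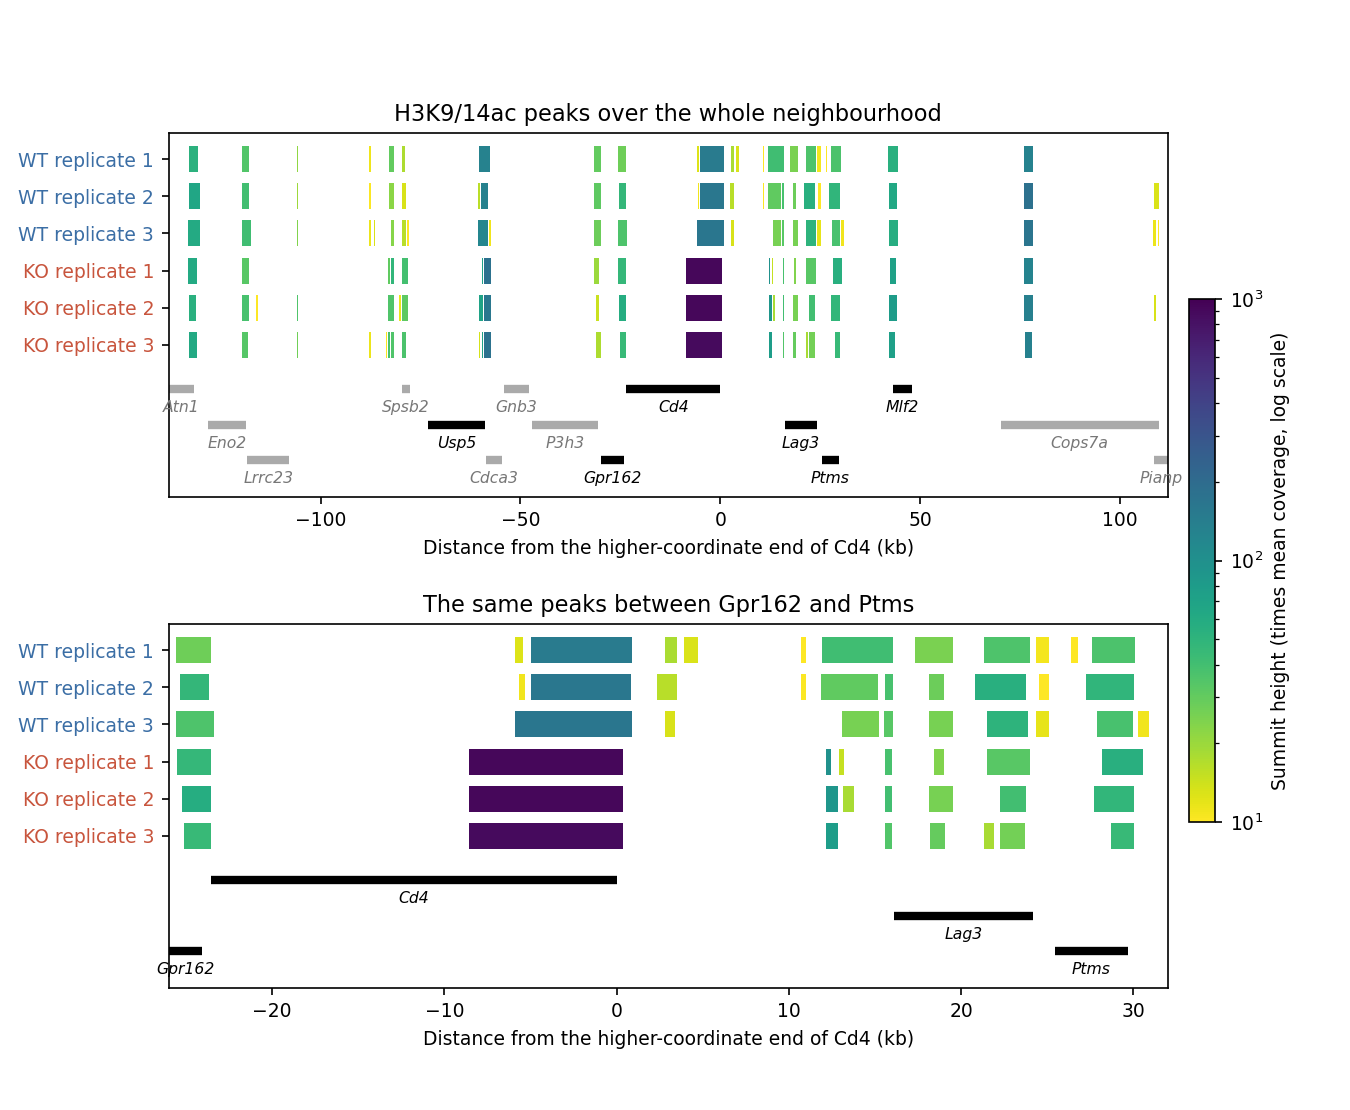
Peaks of each library (1 row per library, WT above KO) along the whole neighbourhood and, enlarged, between Gpr162 and Ptms, with distance from the higher-coordinate end of Cd4 in kb on the x axis, gene spans drawn below and color giving the summit height in multiples of mean coverage on a log scale. The 3 KO rows show a peak of 8946 or 8947 bp over Cd4 with edges that agree within 1 bp. They also show a short peak at the Cd4 side of the region near Lag3, a region in which the WT peaks are longer.

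The height of the Cd4 peak separated the genotypes, while its fold enrichment did not. The peak held 599, 561 and 489 fragments at its summit in the WT libraries and 1702, 2111 and 1707 in the KO libraries, although the KO libraries were shallower. In multiples of mean coverage the summit stood at 150.2, 161.1 and 164.6 in WT and at 920.0, 921.8 and 889.1 in KO, or 158.63 ± 7.51 against 910.3 ± 18.38 (SD, n = 3 each). The groups do not overlap, and the ratio of their means is 5.74 (2.52 on the log2 scale), or 5.81 without KO replicate 3. Among all peaks on chromosomes the Cd4 peak was number 293, 356 and 301 by height in the WT libraries and number 1 in each KO library. The next highest peaks of the KO libraries stood at 526.5, 520.5 and 492.7.

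The authors' fold enrichment divides the height by a local background, and that background moved with the height. The deposited fold was 19.08, 14.39 and 26.21 in WT and 24.23, 19.02 and 17.08 in KO, 19.89 ± 5.95 against 20.11 ± 3.70 (SD, n = 3 each), so the groups overlap. The background under the peak was 7.61, 10.9 and 5.96 times mean coverage in WT replicates 1 to 3. In KO replicates 1 to 3 it was 37.45, 48.05 and 51.55, with no overlap and a ratio of means of 5.60, or 5.24 without KO replicate 3. Among peaks on chromosomes this background was number 4, 2 and 1 in the KO libraries and number 5279, 1906 and 9835 in the WT libraries. No source used here states whether that background comes from the input or from the surroundings of the peak in the ChIP library. This was not tested. Solved heights came in steps of 0.89 and 0.9217 in WT replicates 1 and 2, and of 1.0 in the other libraries. The backgrounds that fell on whole steps, 33.0% to 43.7% per library, had steps of 1.0 in WT replicates 1 and 2. In WT replicate 3 and KO replicates 1 to 3 those steps were 0.955, 0.8482, 0.8591 and 0.7613. The deposited -log10 p of the Cd4 peak was 473.7, 398.2 and 503.4 in WT and 1660.7, 1842.7 and 1416.0 in KO, where it was the highest of each library. Summits lay close together in both genotypes, at 124886883 to 124886924 in WT and at 124886918 to 124886955 in KO.

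**Figure D3:**
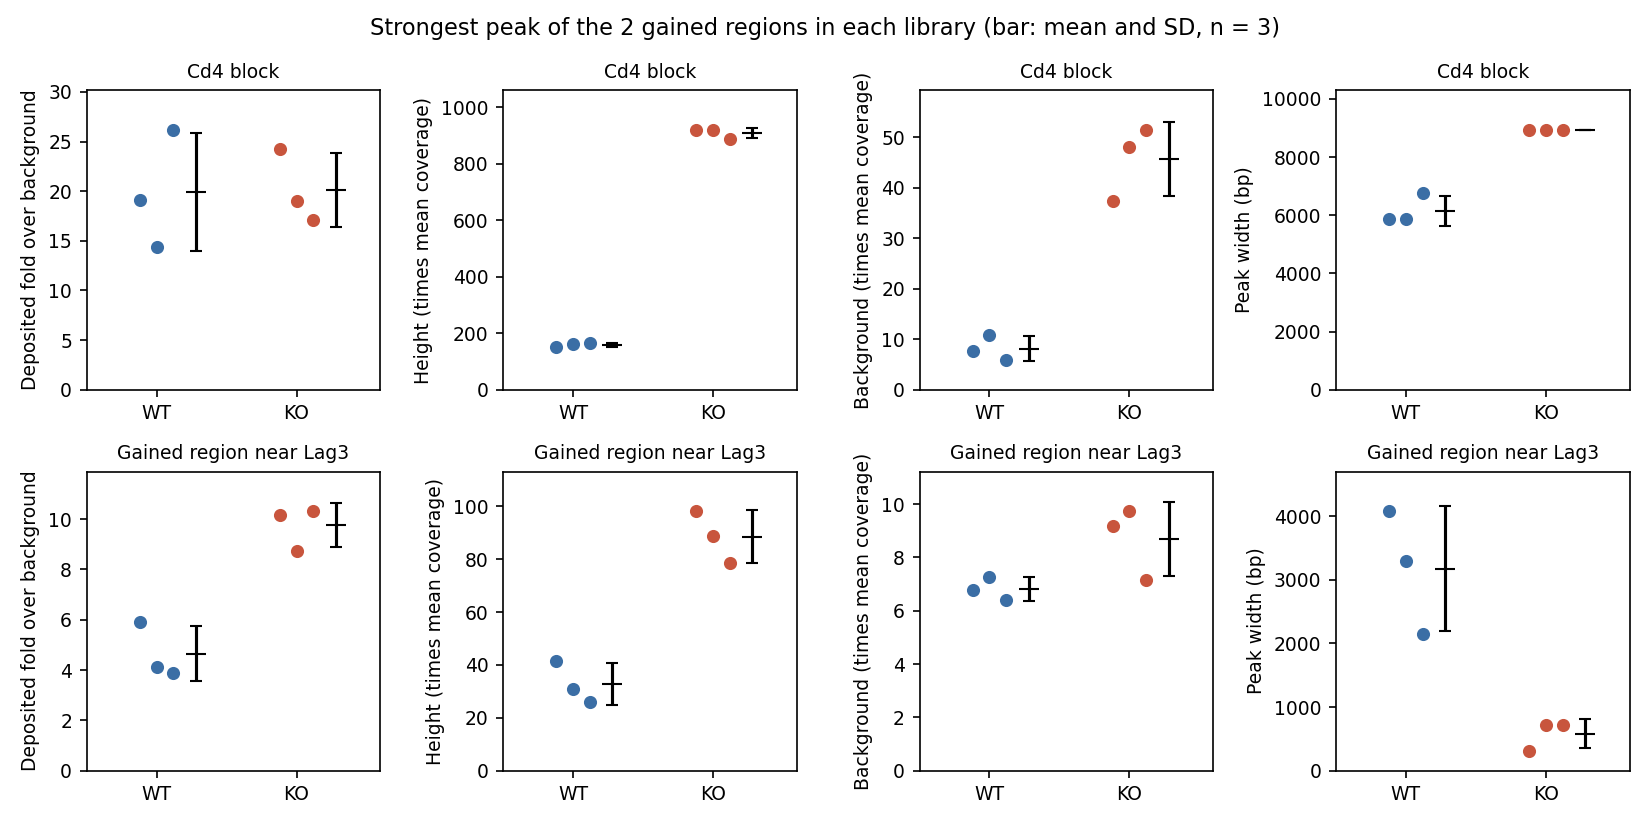
Deposited fold, height and background (both in multiples of mean coverage) and width in bp of the strongest peak over the Cd4 block and over the gained region near Lag3 in each of the 6 libraries (points, with a bar for the mean and SD of 3 libraries), each panel on its own linear axis from 0. At Cd4 height, background and width are separated between WT and KO while the fold enrichment overlaps, and near Lag3 the fold, height and width are separated, with shorter peaks in KO, while the background in multiples of mean coverage overlaps.

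The other end of Cd4 did not share the gain. The region at 124862851 to 124864800, which spans the neighbouring ends of Gpr162 and Cd4, had a log2 fold change of 0.42 with an FDR of 0.851 in the authors' deposited table. Its highest peak stood at 27.6, 47.7 and 36.0 times mean coverage in WT and at 46.5, 57.6 and 44.8 in KO, and the groups overlap.

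Between Cd4 and Lag3 losses and a gain stood close together. The region at 124891351 to 124891650 had a log2 fold change of -1.18 and an FDR of 9.51e-05 in the authors' deposited table. It had a peak of 18.1, 16.4 and 13.1 times mean coverage in WT replicates 1 to 3 and no peak in any KO library. Farther on, the region at 124900201 to 124903050, which ends 1309 bp before the span of Lag3, was called higher with a log2 fold change of 2.71 and an FDR of 6.39e-34, rank 14 by FDR in the authors' deposited table. It is called the region near Lag3 by its whole span. The strongest KO peaks in it lie at its Cd4 side, 12147 to 12862 bp beyond Cd4 and more than 2 kb from Lag3.

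This higher call rests on a small part of the region near Lag3. Of its 19 windows 3 went up and 15 went down in the authors' deposited table, and only 19 of the 5194 higher regions (0.37%) hold more windows going down than up. The best window of the authors' deposited table, at 124900501 to 124900650, lies 12254 bp beyond Cd4. Each KO library had a short peak there, at 124900394 to 124900707 in replicate 1 and at 124900394 to 124901109 in replicates 2 and 3, with the summit between 124900536 and 124900544. WT replicates 1 and 2 had long peaks across it, at 124900186 to 124904273 and at 124900100 to 124903401, and the WT replicate 3 peak, at 124901350 to 124903489, did not reach the KO summit.

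The strongest peak touching the region near Lag3 stood at 41.4, 31.0 and 25.9 times mean coverage in WT and at 98.4, 88.6 and 78.6 in KO, 32.77 ± 7.90 against 88.53 ± 9.90 (SD, n = 3 each), a ratio of 2.70 with no overlap, or 2.85 without KO replicate 3. In WT replicate 1 the summit of that peak lies outside the region, at 124903958. In WT replicates 2 and 3 the summits lie at 124901809 and 124901752, and in KO at 124900536 to 124900544. Height, fold and background are thus read at different places in WT and KO, and no WT height at the KO summit was available. Unlike at Cd4, the deposited fold differed as well, being 5.91, 4.13 and 3.9 in WT and 10.18, 8.74 and 10.34 in KO. The background overlapped between the genotypes in multiples of mean coverage, at 6.39 to 7.27 in WT and 7.14 to 9.76 in KO, but without KO replicate 3 it did not. Over the median background of each library's peaks it did not overlap, at 1.66 to 1.71 in WT and 1.8 to 2.36 in KO. Peak length within the region went the other way, from 2850, 2850 and 1701 bp in WT to 622, 1327 and 716 bp in KO. The mean difference in length, -1579 bp, was -1492 bp without KO replicate 3 and -997 bp with single-read peaks.

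Lag3 itself (124904359 to 124912434) carried no gain. At its lower-coordinate end the region 124903651 to 124904400 had a log2 fold change of -0.72 and an FDR of 0.0375 in the authors' deposited table. Its peak stood at 41.4, 38.5 and 33.0 times mean coverage in WT and at 38.4, 40.2 and 34.9 in KO, and the groups overlap. The region inside the gene, 124906651 to 124907400, was not called, with a log2 fold change of -0.52 and an FDR of 0.0874 in the authors' deposited table. Heights there were 25.3, 27.9 and 25.9 in WT and 23.8, 25.8 and 29.7 in KO. The region at the higher-coordinate end, 124909501 to 124912200, which is also within 2 kb of Ptms, fell, with a log2 fold change of -0.97 and an FDR of 9e-05 in the authors' deposited table, where 15 of its 18 windows went down. Its heights were 36.1, 54.8 and 50.5 in WT and 33.0, 40.6 and 26.6 in KO, a ratio of 0.71 with overlapping groups.

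Ptms (124913675 to 124917946) encodes parathymosin, a small acidic nuclear protein, and Mlf2 (124931388 to 124936149) encodes myeloid leukemia factor 2. Their promoters are shown because both lie wholly under a peak in all 6 libraries while the 2 gains near Cd4 and Lag3 stop short of them. Each is the 250 bases before the start of the gene in RefSeq (GRCm38.p6), 5′ to 3′, at chr6:124917947-124918196 on the minus strand for Ptms and chr6:124931138-124931387 on the plus strand for Mlf2, with CG dinucleotides in capitals.
Ptms: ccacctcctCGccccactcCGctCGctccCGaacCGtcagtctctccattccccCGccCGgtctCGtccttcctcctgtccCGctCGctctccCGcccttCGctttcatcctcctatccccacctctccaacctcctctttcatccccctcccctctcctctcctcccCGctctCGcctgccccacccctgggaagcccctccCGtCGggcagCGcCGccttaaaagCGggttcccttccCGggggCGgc
Mlf2: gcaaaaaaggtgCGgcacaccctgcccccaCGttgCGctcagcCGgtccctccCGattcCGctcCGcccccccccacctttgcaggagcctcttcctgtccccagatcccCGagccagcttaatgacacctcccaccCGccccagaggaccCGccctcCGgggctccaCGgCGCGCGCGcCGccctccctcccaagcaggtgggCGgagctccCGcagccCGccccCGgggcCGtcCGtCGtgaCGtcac
The Ptms promoter holds 21 CG dinucleotides and 69.2% G and C, and the Mlf2 promoter holds 25 and 73.2%, where the medians over 32851 promoters of that length are 6 and 52.4%. Searched on both strands, the letters TGACG (a half-site of the cyclic AMP response element) occur 1 time in Ptms and 2 times in Mlf2 and are found in 17.8% of all promoters. The matches in Mlf2 overlap, lying on opposite strands at positions 242 and 245 of the printed sequence, and together spell 1 full palindromic site. AACNG (Myb) occurs 1 time in Ptms, with a share of 74.2% of all promoters, and CANNTG (the E-box) 1 time in Mlf2, with a share of 66.2%. Neither window holds the Runx letters TGTGGT, present in 14.0% of all promoters, or the AP-1 letters TGANTCA, present in 6.75%. The Ets letters CCGGAA (in 12.0% of all promoters) and the TATA box letters TATAAA (in 12.4%) were not in these windows either. Promoters of the other 4 genes are not printed.

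At the Ptms promoter the change was not called, while at that of Mlf2 the table and the peak heights differed in direction. The Ptms region, 124915951 to 124918350, had a log2 fold change of -0.58 and an FDR of 0.204 in the authors' deposited table. Its highest peak stood at 36.6, 49.1 and 38.0 times mean coverage in WT and at 55.1, 48.5 and 44.8 in KO, with overlap and a ratio of 1.20. The Mlf2 region, 124930501 to 124932450, was called lower, with a log2 fold change of -0.86 and an FDR of 0.00194 in the authors' deposited table, where 6 of its 13 windows went down and 0 went up. Its summit stood at 53.9, 63.7 and 57.2 in WT and at 71.4, 79.5 and 74.0 in KO, 58.3 ± 5.0 against 75.0 ± 4.1 (SD, n = 3 each), higher in KO with no overlap. The fold change belongs to the best window of a region and the height to its summit, so the values measure different bases. Their scales differ as well. Scaled by mean coverage like the heights, the best-window log2 fold change would be -0.55, against a log2 height ratio of 0.36.

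Gpr162 (124858444 to 124864195) encodes an orphan G protein-coupled receptor. The region between P3h3 and Gpr162, 124856551 to 124858050, fell across its whole length, with 10 of 10 windows down, a log2 fold change of -1.42 and an FDR of 3.02e-07 in the authors' deposited table. Its peak stood at 30.3, 31.6 and 28.3 times mean coverage in WT and at 20.0, 14.4 and 17.7 in KO, a ratio of 0.58 with no overlap. The opposite end of Gpr162 is the region shared with Cd4 given above, which was not called.

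Usp5 (124815019 to 124829484) encodes a deubiquitinase that takes apart free ubiquitin chains. The region over the facing ends of Usp5 and Cdca3, 124827751 to 124831050, was called higher, with a log2 fold change of 1.03 and an FDR of 0.000234 in the authors' deposited table. Of its 22 windows 6 went up and 3 went down, and the best of them starts at 124830451, on the Cdca3 side, in the authors' deposited table. The summit stood at 129.9, 135.0 and 120.5 times mean coverage in WT and at 178.9, 159.8 and 175.5 in KO, a ratio of 1.33 with no overlap. On the Usp5 side 295 bp at 124828929 to 124829223 were under a peak in all 3 WT libraries and in 0 KO libraries.

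**Figure D4:**
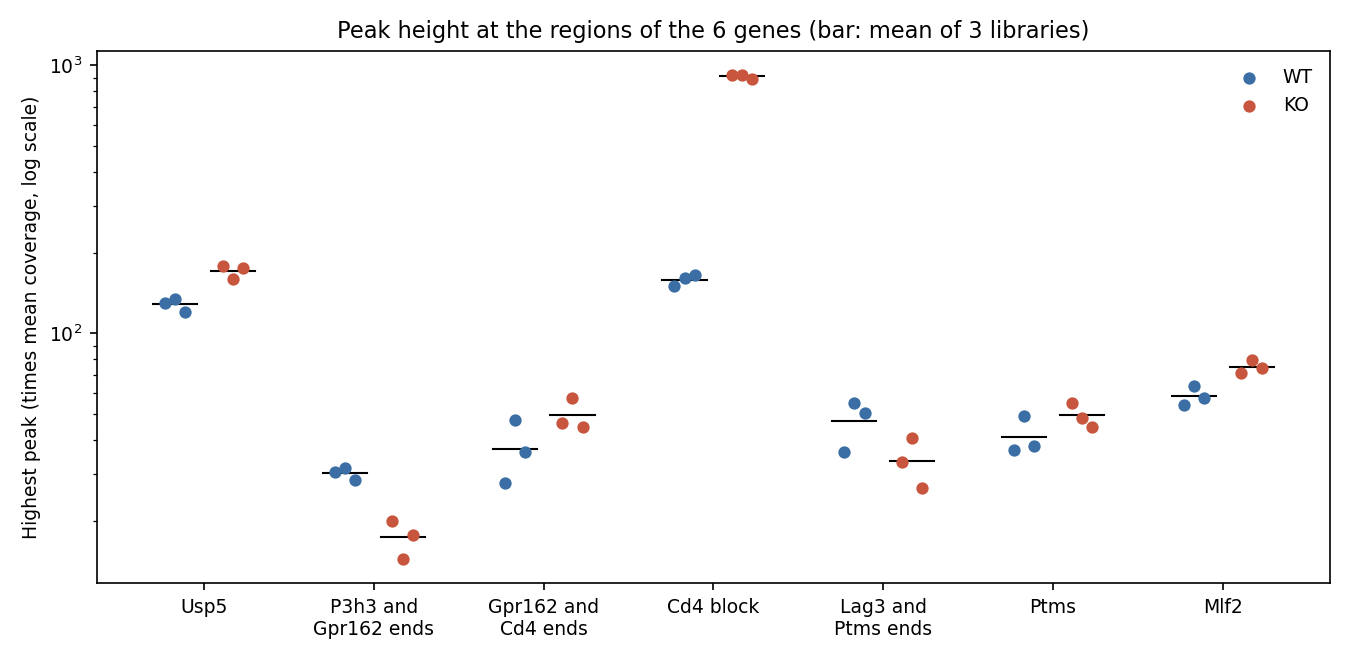
Highest peak in multiples of mean coverage (y axis, log scale) at 7 regions of the 6 genes in each of 3 WT and 3 KO libraries (points), with a bar for the mean of each genotype. Among these 7 regions, only at the Cd4 block are the KO points several times the WT points, at 889.1 to 921.8 against 150.2 to 164.6. Between P3h3 and Gpr162 the KO points lie below. Regions within 2 kb of Lag3 alone are not drawn. They include the gained region near Lag3, at 78.6 to 98.4 in KO against 25.9 to 41.4 in WT.

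Of the other genes of the neighbourhood, Spsb2, which encodes an adaptor of a ubiquitin ligase, was called higher, with a log2 fold change of 1.05 and an FDR of 4.25e-05 in the authors' deposited table. Its peak stood at 17.5, 13.2 and 16.5 times mean coverage in WT and at 39.5, 31.4 and 37.0 in KO, a ratio of 2.29. An intergenic region at 124804951 to 124806600 was called higher as well, with a log2 fold change of 0.92 in the authors' deposited table and a height ratio of 1.61. Called lower in the authors' deposited table were the regions at Cops7a (log2 fold change -1.07), at the facing ends of Eno2 and Lrrc23 (-1.28) and between genes at 124800451 (-1.17). Regions at Atn1 (-0.60) and Lrrc23 (-0.58) and one between genes at 124801651 (-0.46) were not called in the authors' deposited table.

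Set against all 11477 genes with a peak in every library, the Cd4 height ratio of 5.74 was rank 3, and the median ratio was 1.01. The ratios of the highest peak over the other 5 genes and 2 kb to each side were 1.33 for Usp5, 1.31 for Gpr162, 1.29 for Mlf2, 1.05 for Ptms and 0.78 for Lag3. By the deposited fold alone, the genes outside the neighbourhood most like Cd4 over the 6 libraries were Mbd6 and Ddit3, which share a region, at a Euclidean distance of 0.43 in log2 fold, then Foxp1 at 0.44 and Zfp64 at 0.46. This measure takes the highest fold anywhere at a gene, which for Cd4 in KO replicate 2 was 22.34, at the end shared with Gpr162, and not the 19.02 of the block. Their peak heights in KO did not pass 337.6 times mean coverage, against at least 889.1 for Cd4.

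Most tested genes that work with CD4 were lower in KO, as were most tested genes. Each gene of these lists is given by its gene-end region of lowest FDR, a rule under which 64.3% of 11626 genes were lower in the authors' deposited table, 6.40% were higher and the median log2 fold change was -0.81. Of 17 tested coreceptor and T cell receptor signalling genes, the authors' deposited table calls 12 lower and 2 higher, with a median of -1.03. Lower among them were Cd8b1, a chain of the CD8 coreceptor (-2.00), Csk, the kinase that restrains Lck (-2.73), Cd247, the zeta chain of the receptor (-2.18), and Zap70, the kinase that binds it (-1.59), all as log2 fold changes of the authors' deposited table. Higher in the authors' deposited table were the adhesion receptor gene Cd2 (1.21) and Ptprc, which encodes the phosphatase CD45 (0.95).

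Factors known to act on the Cd4 gene were lower in 13 of 16 cases and higher in 0 in the authors' deposited table, with a median of -1.02. Their summed peak height, a different measure on a different scale, was higher in KO. It stood at 1208.1, 1429.1 and 1345.5 times mean coverage in WT and 1468.1, 1506.6 and 1481.8 in KO, with no overlap. For the T cell receptor signalling list it was 1697.0 to 1997.9 in WT and 1867.0 to 1975.5 in KO, and for the inhibitory receptor list below 736.3 to 820.7 and 757.8 to 800.4, both overlapping. The median height of all peaks of a library was also higher in KO, at 20.5 to 22.2 against 17.0 to 19.0 in WT. The median height ratio over genes was 1.01. The lower factors acting on Cd4 include Runx1, which acts at the Cd4 silencer (-1.39), Tcf7 (-1.47), Ets1 (-1.66) and Ikzf1 (-1.04), as log2 fold changes of the authors' deposited table. Among 10 tested genes of other inhibitory receptors and of LAG-3 shedding and ligands, the authors' deposited table calls 6 lower and 0 higher, with a median of -0.93. They include Ctla4 (-1.16), Pdcd1, which encodes PD-1 (-1.23), Tigit (-1.46) and H2-Ab1, a chain of the MHC class II ligand (-1.44), by the authors' deposited table.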

How the data were processed

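H3K9/14ac was measured in 6 ChIP libraries, 3 per genotype; the 6 input libraries were not used here. Per the submitters' processing notes, the tools were MACS2 2.2.6, Bowtie2 2.3.5.1, deepTools 3.3.2, cutadapt 2.8 and bcl2fastq 2.20.0.422, and the builds GRCm38 and mm10. What program made the differential table, how it scaled libraries and which control served for peaks was not stated in the sources.

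The authors called peaks per library and deposited for each peak the fold enrichment (ratio), a score, and p and q as -log10 values, q being at least 3.0. Lists called on paired fragments were used. The authors' deposited table gives per region the best window's log2 fold change, p-value and FDR, and how many 150 bp windows went up or down, but no value per library. Spans of the 24128 listed regions were taken as deposited. Others were joined from windows under peaks (16759, a rule that rebuilt 98.0% of listed spans) or set to the best window (22).

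MACS2 computes fold as (height + 1) / (background + 1) and p from a Poisson tail, so both were solved for in 99.28% to 100% of peaks. In WT replicates 1 and 2 heights are scaled and 77.3% and 78.6% came out whole. Tested on simulated data, 100% of 400 whole and 96.75% of 400 scaled heights returned. Mean coverage is the lowest background that many peaks share. In 1309 regions the deposited fold change lies 0.30 (log2) below one scaled by mean coverage, a shift that changes no direction among the calls of the interval. Intervals for counting error were not computed.

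The members, gene lists and markers were chosen with earlier results of these data known, and no test was run. Named are the 6 genes, the other genes of the interval, Slc2a3, the 4 listed genes of lowest FDR and the 4 genes nearest Cd4 in log2 fold; Cd2 and Ptprc, the marker genes and the places singled out were named after their values were seen. A peak counted as present on an overlap of 1 bp, and a region belonged to a gene within 2 kb of its span. The annotation (GRCm38.p6) gives no strand, exons or introns. Single-read peaks, a -log10 q of at least 10, relative heights, a fold change minimum and leaving out each library were set against these choices. Python 3.11.15, numpy 2.4.6, pandas 2.3.3, scipy 1.17.1 and matplotlib 3.10.9 were used.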

Additional observations from a re-analysis of the deposited data

How the results depend on the processing

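Of 80 alternative values 10 moved by more than the spread between libraries or, for counts, by over 1.5 times. The difference in fold at Cd4, 0.22 as reported and within that spread, changed sign without WT replicate 1 (-0.19), WT replicate 2 (-2.53) or KO replicate 1 (-1.84), and no other difference changed sign. With single-read peaks the length found in KO libraries alone was 4511 bp (2936 bp as reported). The KO minus WT differences in peak length were then 3701 bp over the Cd4 block (2693 bp), -997 bp over the region near Lag3 (-1579 bp) and -2651 bp elsewhere (-7883 bp), and the difference in fold near Lag3 was 6.93. With a -log10 q of at least 10 the differences were 2952 bp over the Cd4 block and -6441 bp elsewhere. Read as height in multiples of mean coverage, the difference at Cd4 was 752 where the fold differed by 0.22, and near Lag3 it was 55.79. Asking also for a log2 fold change of 1 or more in size, 5 regions were lower instead of 8. The cause of these shifts was not tested. Leaving out each library in turn gave 2968 to 3634 bp found in KO alone, 4503 to 4987 bp found in WT alone (3746 bp), 2569 to 2861 bp over the Cd4 block, -1962 to -1387 bp near Lag3, -8565 to -7142 bp elsewhere, -2.53 to 3.38 for the fold at Cd4 and 4.73 to 5.73 for the fold near Lag3. A class defined by all 3 libraries of a genotype can only grow when a library is left out. No paired analysis was possible because no result comes from a test. The KO libraries' lower coverage limits how far weak KO peaks can be called.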

Other observations

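Of the 11477 genes with a peak in every library, 2 had a larger KO to WT ratio of height than Cd4, both named after their values were seen. Msc, which encodes the transcription factor musculin, stood at 13.5, 11.8 and 13.5 times mean coverage in WT replicates 1 to 3 and at 31.4, 194.8 and 35.9 in KO replicates 1 to 3, and its ratio of 6.74 was 2.6 without KO replicate 2. Carhsp1, which encodes an RNA-binding protein, stood at 29.1, 33.6 and 36.0 in WT and at 194.1, 189.5 and 192.7 in KO, a ratio of 5.84 with little spread.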
